A study of Mus musculus with 23 samples.

Results

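The genes described here control how the liver makes and stores glucose: *Pck1*, *G6pc* and *Fbp1* of gluconeogenesis, *Gys2*, *Ppp1r3b*, *Ppp1r3c* and *Ppp1r3g* of glycogen synthesis, the glucose transporter *Slc2a2*, and *Pdk4*, which sets the entry of pyruvate into the mitochondrial oxidation pathway. They were chosen by name and number 9 of the 37074 gene names on the array. Each was read by 1 probe, and all 9 probes passed the filter on dim probes that left 21056 genes. Hepatic transcripts were measured in male mice on Agilent 1-colour arrays, with 1 array for each mouse, to ask what an activator of the nuclear receptor PXR does to the liver and what remains of it in mice that lack the receptor. Wild-type (WT) C57BL/6J mice were bought at 6 weeks of age, and Pxr-/- mice, backcrossed on the same background, came from a colony kept in the facility for 10 years. Genotype and colony therefore cannot be told apart, and the age of the Pxr-/- mice was not given in the sources used here. After 2 weeks of acclimatization, PCN mice received pregnenolone 16α-carbonitrile, a steroid that activates rodent PXR, at 100 mg/kg in corn oil by daily intraperitoneal injection for 4 days. Control (CONT) mice received corn oil alone. All mice had free access to food and were killed at zeitgeber time 6, 6 h after the last injection. The sources differ on the feeding state at that time, which the labels call fed and the study's text semi-fasted. WT CONT, Pxr-/- CONT and Pxr-/- PCN held 6 arrays each and WT PCN 5. The deletion is present in every cell of the Pxr-/- mice, so their liver is not the only tissue without the receptor.

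In the fed liver, insulin favours glycogen synthesis and holds gluconeogenesis low, while in fasting glucagon raises cyclic AMP and turns on *Pck1* and *G6pc*. Glycogen synthase is activated by removal of phosphates, and proteins of the PPP1R3 family carry protein phosphatase 1 to the glycogen particle for that purpose. PXR is best known as a sensor of foreign compounds that induces drug-metabolizing enzymes, and it has also been linked to glucose and lipid metabolism.

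Signals are normalized log2 signals, on which 1 unit is a 2-fold difference, and a signal of one probe is not comparable with that of another. A gene was called when limma gave an adjusted p of at most 0.05 and a fold change above 1.5. Adjusted p-values cover all 32087 probes tested. Each array had 29510 to 33321 probes well above background. The probes of the 9 genes were so on all 23 arrays, and none was saturated. The 5 detected hepatocyte markers were above background on every array, with a summed log2 signal between 19.81 and 20.14. Scaling moved the whole distribution in some comparisons. In WT mice the median PCN change of all probes was -0.02 here and 0.11 in the authors' deposited values, and the share of called genes that were higher was 60.1% and 83.9%. For Pxr-/- PCN against WT PCN mice the medians were 0.01 and -0.18 and these shares 35.3% and 5.16%. Changes are therefore relative to all probes. In whole liver, fewer cells of a type and less RNA per cell cannot be told apart.

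The bases before the start of 3 of the genes are shown because *Pck1* fell most of the 9 genes in WT PCN mice, *Ppp1r3g* gave the only response called different between genotypes, and *G6pc*, the other classic hormone target, had the largest uncalled change in Pxr-/- mice. Sequences are from RefSeq (GRCm38.p6), cover the 250 bases before the annotated start, and are printed 5′ to 3′ on the gene's strand. Capitals mark exact matches, on either strand, to the letter strings named after them.
Pck1: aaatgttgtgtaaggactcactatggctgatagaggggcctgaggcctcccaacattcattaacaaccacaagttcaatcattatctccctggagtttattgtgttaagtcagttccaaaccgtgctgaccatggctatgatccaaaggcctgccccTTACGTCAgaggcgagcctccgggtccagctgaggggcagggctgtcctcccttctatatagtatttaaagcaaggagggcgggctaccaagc
G6pc: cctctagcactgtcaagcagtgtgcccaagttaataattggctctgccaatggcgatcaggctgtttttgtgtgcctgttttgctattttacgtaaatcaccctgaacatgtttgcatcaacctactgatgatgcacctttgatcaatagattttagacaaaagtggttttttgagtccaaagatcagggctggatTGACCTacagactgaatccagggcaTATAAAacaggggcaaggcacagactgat
Ppp1r3g: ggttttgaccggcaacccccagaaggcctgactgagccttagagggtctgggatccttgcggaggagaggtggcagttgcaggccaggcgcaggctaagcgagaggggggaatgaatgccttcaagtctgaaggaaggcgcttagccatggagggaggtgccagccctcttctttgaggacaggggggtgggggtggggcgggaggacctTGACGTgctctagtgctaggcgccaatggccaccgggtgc
The *Pck1* window (chr2:173152823-173153072, plus strand) held TTACGTCA with its first base at position -93, counted back from the start. These are the letters of the classic cyclic AMP response element of this gene, and 0.447% of 32851 mouse promoter windows held them. The *Ppp1r3g* window (chr13:35967656-35967905, plus strand) held ACGTCA on the opposite strand, printed as TGACGT, from position -40. This shorter core, which also lies inside the *Pck1* match, was present in 6.47% of windows. The *G6pc* window (chr11:101367466-101367715, plus strand) held AGGTCA on the opposite strand, printed as TGACCT, from position -54, and TATAAA from position -29. AGGTCA, the half-site of many nuclear receptors, was present in 14% of windows and TATAAA in 12.4%. *Slc2a2* also held AGGTCA, and *Ppp1r3c* held CACGTG, an E-box, from position -104 (6.02% of windows). The direct repeat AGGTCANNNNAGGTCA, a spacing that PXR can bind, was in 0.0152% of windows and in none of the 7 windows examined, nor were AGGTCANAGGTCA, TGACGTCA, GTAAACA or TTGCGCAA. *Gys2* and *Ppp1r3b* had no entry in the promoter table. A match is a description of letters, and no match says only that these letters are not in this window.

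In WT mice PCN changed 5 of the 9 genes. *Pck1*, *Gys2* and *Ppp1r3c* were lower, and *Ppp1r3g* and *Pdk4* were higher. Among all genes, 2.83% were called lower and 4.25% higher in this comparison. In Pxr-/- mice only *Ppp1r3c* was called, as lower, where 0.95% of all genes were called lower and 1.6% higher. The median change of the 9 genes was -0.43 in WT and -0.41 in Pxr-/- mice, beside -0.02 and -0.01 for all genes. Both medians were the value of *Fbp1*, which was not called in either genotype. The 9 genes ran from -1.70 to 1.58 in WT and from -1.38 to 0.05 in Pxr-/- mice.

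**Figure D1:**
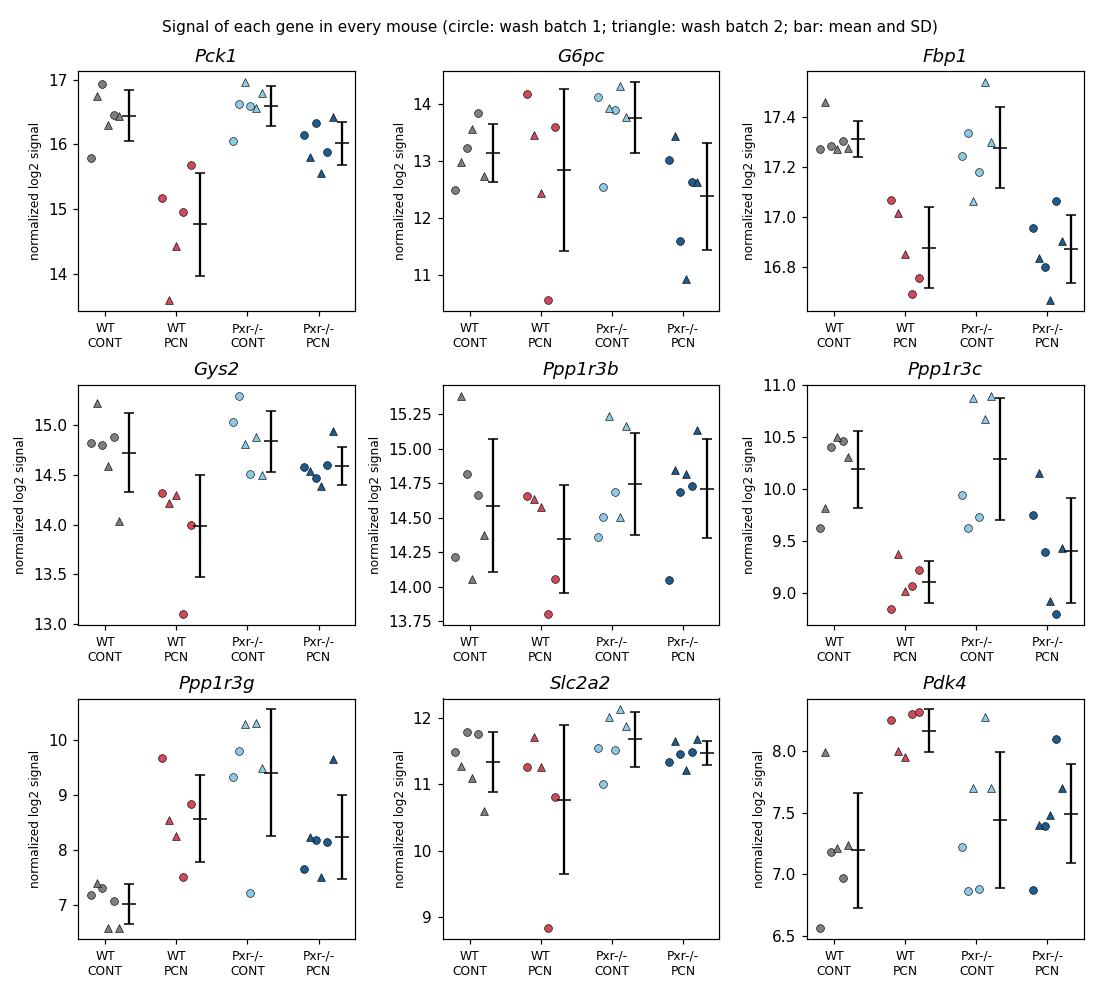
Normalized log2 signal of each of the 9 genes in each of the 23 mice, by group, with circles for washing batch 1 and triangles for washing batch 2. Bars are group mean and SD. Every WT PCN mouse was below every WT CONT mouse for *Pck1*, *Fbp1* and *Ppp1r3c* and above every one for *Ppp1r3g*. The share of all genes that separate in this way is not given here. Vertical scales differ between genes.

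*Pck1* encodes cytosolic phosphoenolpyruvate carboxykinase, which commits oxaloacetate to glucose synthesis. Its probe lies on chromosome 2 from 172984307 to 172984366 (mm9). The 5 WT PCN mice had log2 signals of 15.18, 13.59, 14.44, 14.96 and 15.68. WT CONT mice ranged from 15.79 to 16.94, with a median of 16.45, so the groups did not overlap. *Pck1* fell by 1.70 (SE 0.27), to 30.8% of the WT CONT level (limma adjusted p = 1.23e-04). Within the washing batches the change was -1.13 and -2.48. Pxr-/- signals ran from 16.05 through a median of 16.60 to 16.97 in CONT and from 15.55 through 16.01 to 16.42 in PCN mice, which overlapped. The change of -0.58 (SE 0.25, 95% confidence interval up to -0.05) was not called (adjusted p = 0.184). The WT minus Pxr-/- difference of the effects was -1.12 (interval -1.88 to -0.36) and was not called either (adjusted p = 0.143). All Pxr-/- PCN mice but 1 were above the highest WT PCN mouse. Pxr-/- PCN mice had 2.41-fold more *Pck1* signal than WT PCN mice (log2 difference 1.27, SE 0.27, adjusted p = 0.00570), which was 0.85 and not called within washing batch 1 (adjusted p = 0.157) and 1.91 within batch 2. This comparison shares the WT PCN arrays with the WT effect. *Pck1* was the only one of the 9 genes called between the PCN groups, where 0.841% of all genes were called higher and 1.54% lower in Pxr-/- PCN mice. The others ran from -0.71 for *Pdk4* to 0.68 for *Slc2a2*.

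*G6pc* encodes the catalytic subunit of glucose-6-phosphatase, which releases free glucose. Positions 101238947 to 101239006 of chromosome 11 hold its probe. WT PCN mice had log2 signals of 14.18, 13.46, 12.45, 10.56 and 13.60, a wider spread than the 12.49 to 13.85 of WT CONT mice (median 13.11). The WT PCN group thus held both a mouse above and mice below all WT CONT mice. The change was -0.29 (SE 0.52, adjusted p = 0.742), and without WT PCN replicate 4, the mouse at 10.56, it was 0.28. Those of Pxr-/- mice ran from 12.54 through 13.92 to 14.31 in CONT and from 10.94 through 12.64 to 13.45 in PCN mice. *G6pc* was 1.38 lower (interval -2.40 to -0.37) with PCN in Pxr-/- mice, and this change missed the threshold (adjusted p = 0.0944). Without WT PCN replicate 4 the change was the same, its SE 0.38 instead of 0.49, and it was called (adjusted p = 0.0333). The difference between the genotypes' responses was 1.098 (interval -0.38 to 2.57, adjusted p = 0.515).

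*Fbp1* encodes fructose bisphosphatase, the gluconeogenic step between the other enzymes. The array reads it between 62966175 and 62966234 on chromosome 13. WT PCN mice had log2 signals of 17.07, 17.02, 16.85, 16.69 and 16.75, all below the range of 17.27 to 17.46 in WT CONT mice (median 17.28). The change was -0.43 (SE 0.09, adjusted p = 0.00119), a 1.35-fold fall that passed the p threshold but not the fold threshold. Its range in Pxr-/- mice was 17.07 through 17.27 to 17.54 in CONT and 16.67 through 16.87 to 17.07 in PCN mice, which met at 1 end. There the change was -0.41 (SE 0.08, adjusted p = 0.00616), also below 1.5-fold. The responses of the genotypes differed by -0.03, with an interval of -0.28 to 0.22. Of the 9 genes, *Fbp1* had the smallest SE in each comparison.

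*Gys2* encodes liver glycogen synthase, the enzyme that extends glycogen chains. Its probe lies on chromosome 6 from 142371157 to 142371216. WT PCN mice had log2 signals of 14.32, 14.22, 14.29, 13.10 and 14.00. WT CONT mice ranged from 14.04 to 15.23 (median 14.81), and 4 of the 6 were at or above 14.80. The groups overlapped through the lowest WT CONT mouse. *Gys2* fell by 0.74 (SE 0.21, adjusted p = 0.0134), to 59.9% of the WT CONT level. This call depended on WT PCN replicate 4, the mouse at 13.10: without it the change was -0.52, under 1.5-fold (adjusted p = 0.0426). The call was also lost with the authors' deposited values (-0.50, adjusted p = 0.0895), with only the WT arrays in the fit (-0.73, adjusted p = 0.0586) and within washing batch 2 (-0.36, adjusted p = 0.483), while batch 1 gave -1.03. *Gys2* in Pxr-/- mice ran from 14.50 through 14.85 to 15.30 in CONT and from 14.39 through 14.56 to 14.95 in PCN mice, a change of -0.25 (interval -0.66 to 0.16, adjusted p = 0.507).

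*Ppp1r3c*, also known as PTG, encodes a glycogen-targeting subunit of protein phosphatase 1 found in many tissues. Its probe lies on chromosome 19 from 36806457 to 36806516. WT PCN mice had log2 signals of 8.84, 9.37, 9.02, 9.07 and 9.22, all below the WT CONT range of 9.63 to 10.50 (median 10.36). *Ppp1r3c* fell by 1.04 (SE 0.23), to 48.5% of the WT CONT level (adjusted p = 0.00240). Within the washing batches the change was -1.12 and, not called, -1.01 (adjusted p = 0.0807). The Pxr-/- signals ran from 9.62 through 10.30 to 10.90 in CONT and from 8.80 through 9.41 to 10.15 in PCN mice. The groups overlapped, and in CONT mice the 3 arrays of batch 2 lay above the 3 of batch 1. The Pxr-/- change was -0.88 (SE 0.22, adjusted p = 0.0197), to 54.3%. It was not called within either batch, at -0.45 (adjusted p = 0.462) and -1.31 (adjusted p = 0.0693), nor without Pxr-/- CONT replicate 3 (-0.80, adjusted p = 0.0517) or Pxr-/- PCN replicate 4 (-0.74, adjusted p = 0.0614). *Ppp1r3c* was the only one of the 9 genes called after PCN in both genotypes. The difference between the responses was -0.16, with an interval of -0.83 to 0.50.

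*Ppp1r3g* encodes another glycogen-targeting subunit of the phosphatase. It was the only one of the 9 genes whose response to PCN was called different between the genotypes. Its probe lies on chromosome 13 from 36061999 to 36062058. WT CONT mice ranged from 6.58 to 7.39 (median 7.12), and WT PCN mice had log2 signals of 9.67, 8.54, 8.26, 7.51 and 8.83, all above them. The rise was 1.58 (SE 0.45, adjusted p = 0.0150), or 2.98-fold. In Pxr-/- CONT mice the signals were already high in 5 mice, at 9.32, 9.80, 10.29, 10.30 and 9.49. Replicate 4, at 7.21, lay inside the WT CONT range. Pxr-/- CONT thus exceeded WT CONT by 2.38 (SE 0.43, adjusted p = 0.00925), or 5.22-fold. No other of the 9 genes was called between the CONT groups, where 0.252% of all genes were called higher and 0.0855% lower in Pxr-/- mice. The others ran from -0.03 for *Fbp1* to 0.62 for *G6pc*. Pxr-/- PCN mice had 7.65, 8.23, 8.17, 7.504 and 8.14 in 5 mice and 9.66 in replicate 6. All Pxr-/- PCN mice were above the highest WT CONT mouse.

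The PCN change of *Ppp1r3g* was 1.58 in WT and -1.18 in Pxr-/- mice (interval -2.07 to -0.28), the latter not called (adjusted p = 0.105). The difference of these effects was 2.75 (SE 0.63, interval 1.46 to 4.05) and was called (adjusted p = 0.0244). It was the only such difference called among the 9 genes, where 0.883% of all genes were called with a higher and 0.29% with a lower effect in WT mice. Both PCN groups reached a similar range, and Pxr-/- PCN differed from WT PCN by -0.37 (interval -1.31 to 0.57). The difference between genotypes was 2.28 within washing batch 1 (adjusted p = 0.305) and 3.11 within batch 2 (adjusted p = 0.0912). Leaving out WT PCN replicate 5 (2.65, adjusted p = 0.0503) or Pxr-/- CONT replicate 5 (2.59, adjusted p = 0.0518) ended this call. Without the low Pxr-/- CONT replicate 4, the Pxr-/- fall was -1.61 and called (adjusted p = 0.00959) and the difference 3.16 (adjusted p = 0.00120). Leaving out that mouse, the lowest of its group, by itself enlarges both. The WT rise was not called within either batch, at 1.49 (adjusted p = 0.138) and 1.55 (adjusted p = 0.105), nor without WT PCN replicate 1 (1.27, adjusted p = 0.0505). The CONT difference was 1.59 and not called within batch 1, which held replicate 4 (adjusted p = 0.651), and 3.18 within batch 2. The WT effect and the CONT difference share the WT CONT arrays and are not independent of each other. The difference of the effects also contains the CONT difference of 2.38 and is not a result separate from it.

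*Ppp1r3b*, also known as GL, encodes the glycogen-targeting subunit typical of liver. Its position on chromosome 8 is 36451115 to 36451174. Its log2 signals lay between 13.80 and 15.38 in all 23 mice, and the 4 groups overlapped. The change with PCN was -0.21 (interval -0.64 to 0.22) in WT and -0.03 (interval -0.44 to 0.38) in Pxr-/- mice, with adjusted p-values of 0.520 and 0.954. The 3 phosphatase subunits thus gave separate patterns: *Ppp1r3c* lower with PCN, *Ppp1r3g* higher in WT, and *Ppp1r3b* not called in any of the 5 comparisons.

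**Figure D2:**
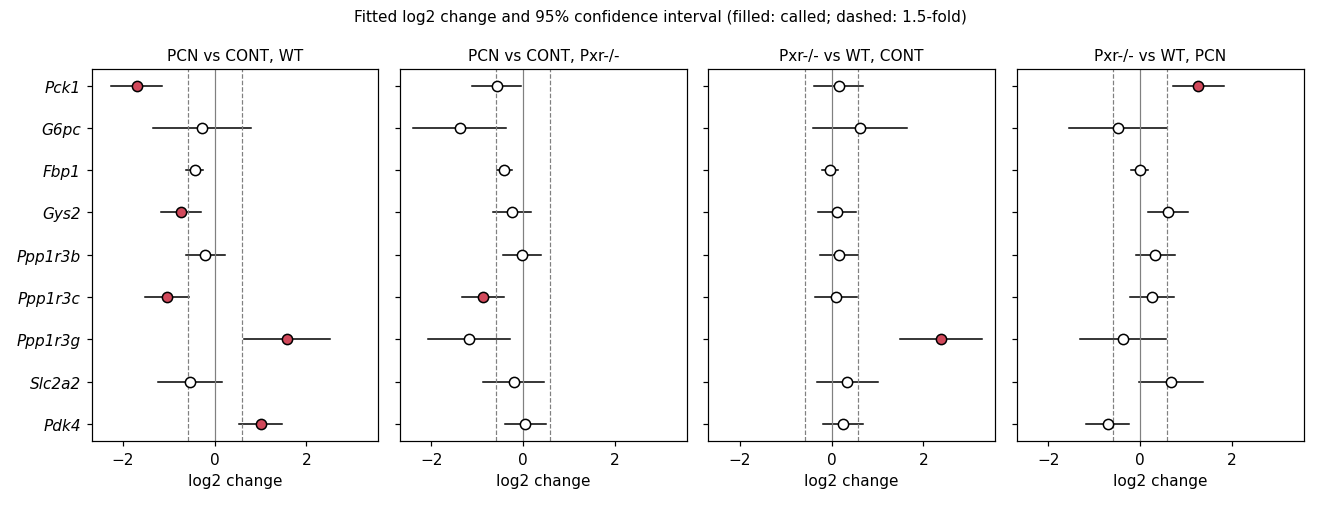
Fitted log2 change of the 9 genes (points) with 95% confidence intervals (lines) in 4 comparisons, with filled points for called genes and dashed lines at 1.5-fold. The 5 filled points in WT mice are *Pck1*, *Gys2*, *Ppp1r3c*, *Ppp1r3g* and *Pdk4*. The other filled points are *Ppp1r3c* in Pxr-/- mice, *Ppp1r3g* between the CONT groups and *Pck1* between the PCN groups.

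*Pdk4* encodes a pyruvate dehydrogenase kinase, which inactivates the enzyme complex and so spares pyruvate for glucose synthesis. It is usually high in fasting and a known target of PPARα. Its probe lies on chromosome 6 from 5433441 to 5433500. WT PCN mice had log2 signals of 8.25, 8.002, 7.95, 8.30 and 8.31, close to each other. WT CONT mice ranged from 6.56 to 7.99 (median 7.20), and 5 of the 6 were at or below 7.24, so the groups overlapped through a single WT CONT mouse, replicate 2. *Pdk4* doubled in the fit, with a rise of 1.00 (SE 0.22, adjusted p = 0.00260). Within the batches the rise was 1.38 and, not called, 0.49 in batch 2 (adjusted p = 0.248), which held that mouse. *Pdk4* in Pxr-/- mice ran from 6.87 through 7.46 to 8.28 in CONT and from 6.87 through 7.44 to 8.10 in PCN mice, with a change of 0.05 (interval -0.39 to 0.49, adjusted p = 0.929). The difference between the responses was 0.95 (interval 0.31 to 1.60) and was not called (adjusted p = 0.137). Without Pxr-/- PCN replicate 5 it was called, at 1.13 (adjusted p = 0.0498). This was the 1 call among 23 fits that left out an array, and none of the 11 other alternatives gave one. Pxr-/- PCN mice had 0.71 less than WT PCN mice (SE 0.22), just outside the threshold (adjusted p = 0.0548). This was called in the deposited values (-0.91, adjusted p = 0.00746), where the median of all probes was -0.18. That was the 1 call among 12 alternatives, and 4 of 23 fits that left out an array also called it.

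*Slc2a2* encodes GLUT2, the main glucose transporter of the hepatocyte membrane. Its probe reaches from 28625253 to 28625961 on chromosome 3, a span longer than the probe itself. WT PCN mice had log2 signals of 11.25, 11.70, 11.25, 8.83 and 10.80, and WT CONT mice ranged from 10.60 to 11.78 (median 11.38). Apart from replicate 4 the WT PCN mice lay inside the WT CONT range. The change was -0.54 (SE 0.34, adjusted p = 0.274), and -0.08 without that replicate. *Slc2a2* in Pxr-/- mice ran from 10.996 through 11.71 to 12.12 in CONT and from 11.22 through 11.47 to 11.68 in PCN mice, with a change of -0.21 (interval -0.88 to 0.46).

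Single mice moved across several of the 9 genes. WT PCN replicate 4 had the lowest signal of its group for 6 of them, *G6pc*, *Fbp1*, *Gys2*, *Ppp1r3b*, *Ppp1r3g* and *Slc2a2*, but not for *Pck1*, *Ppp1r3c* or *Pdk4*. Pxr-/- PCN replicate 4 was also lowest for 6. WT CONT replicate 1 was lowest in its group for 5 and Pxr-/- CONT replicate 2 for 4. Pxr-/- CONT replicate 5 and Pxr-/- PCN replicate 6 were highest in their groups for 5 each, as were WT CONT replicate 2 and WT PCN replicate 1. How often each mouse was lowest or highest over all genes is not given here. Food intake and the time since the last meal of single mice were not given in the sources used here, and their part in this spread was not tested.

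**Figure D3:**
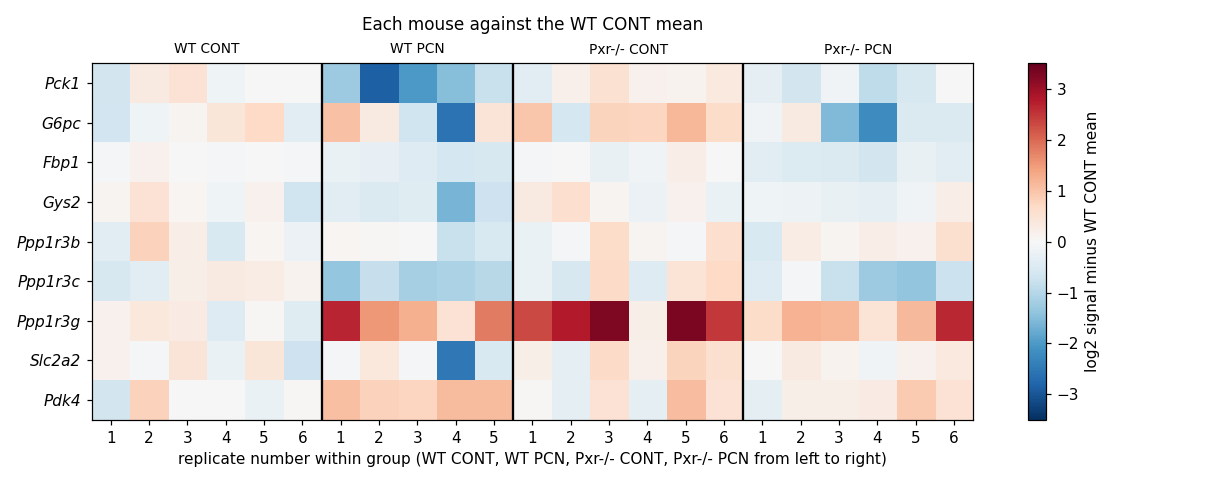
Log2 signal of each mouse (columns, by replicate number within the 4 groups) minus the WT CONT mean of the same gene (rows), with red above and blue below that mean. The *Ppp1r3g* row is red in WT PCN mice and deep red in 5 of 6 Pxr-/- CONT mice, and WT PCN replicate 4 is blue for *G6pc*, *Gys2* and *Slc2a2*.

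The other genes of the same pathways were read beside these 9. After PCN, 4.25% of all genes were called higher and 2.83% lower in WT mice, and 1.6% and 0.95% in Pxr-/- mice. The lists are short, and no count below was tested against these shares. Of 16 other gluconeogenesis genes tested, 1 was called higher and 1 lower after PCN in WT mice, and none in Pxr-/- mice, with medians of -0.03 and -0.15. *Ldha*, lactate dehydrogenase, fell by 0.73 (SE 0.08, adjusted p = 3.46e-06), and its second called probe by 1.02. *Gpi1*, glucose phosphate isomerase, was called through its dimmer probes, which rose by 0.88 and 0.68 (adjusted p = 0.00937 and 0.00399). Its brightest probe rose by 0.47, under 1.5-fold. *Pcx*, pyruvate carboxylase, which feeds *Pck1* with oxaloacetate, was 0.39 lower (SE 0.11, adjusted p = 0.0127), also under 1.5-fold.

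Of 15 glucose use genes, *Pgd*, of the pentose phosphate pathway, was the only one called in WT mice, with a rise of 0.79 (SE 0.13, adjusted p = 1.87e-04). Its response exceeded that in Pxr-/- mice by 0.85 (SE 0.18, adjusted p = 0.0143), and none of the 15 was called in Pxr-/- mice. Medians were 0.20 in WT and -0.06 in Pxr-/- mice. *Slc16a1*, a lactate and pyruvate transporter, was 0.93 lower in Pxr-/- PCN than in WT PCN mice (SE 0.16, adjusted p = 8.57e-04).

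Of 23 other glycogen genes tested, 2 were called higher and 1 lower in WT mice and none in Pxr-/- mice, with medians of 0.06 and -0.01. *Nhlrc1*, which encodes malin, a ligase that targets glycogen-bound proteins, rose by 0.67 (SE 0.19, adjusted p = 0.0138). *Gaa*, lysosomal glucosidase, rose by 0.63 (SE 0.13, adjusted p = 0.00115) and *Phka2*, a phosphorylase kinase subunit, fell by 0.80 (SE 0.15, adjusted p = 6.12e-04), both through a probe other than the brightest, which gave 0.40 and -0.10. The response of *Gyg*, glycogenin, which primes glycogen chains, differed between genotypes by 0.63 (SE 0.10, adjusted p = 0.00144). Its second probe gave 0.54, under 1.5-fold.

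Of 12 other pyruvate dehydrogenase control genes, *Dlat*, the acetyltransferase of the complex, was the only one called in WT mice, with a rise of 0.64 (SE 0.10, adjusted p = 1.01e-04), and 0.67 in its second probe. Its response differed between genotypes by 0.94 (SE 0.14, adjusted p = 3.87e-04), and by 0.62 in the second probe, which was not called (adjusted p = 0.0567). None of the 12 was called in Pxr-/- mice, and the medians were 0.06 and -0.14. The other pyruvate dehydrogenase kinases, *Pdk1*, *Pdk2* and *Pdk3*, and the phosphatases *Pdp1* and *Pdp2* were not called after PCN in either genotype.

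Of the 24 hormone and transcription control genes, 1 was called higher and 4 lower in WT mice, beside 4.25% and 2.83% of all genes. In Pxr-/- mice none was called higher and 4 lower, beside 1.6% and 0.95% of all genes. Medians were -0.19 and -0.07, and the list was not tested against other lists. *Ppargc1a*, the coactivator PGC-1α that drives *Pck1* and *G6pc*, fell by 1.20 (SE 0.18, adjusted p = 9.88e-05) in WT and by 0.96 (SE 0.18, adjusted p = 0.00310) in Pxr-/- mice, and its second probe fell by 0.94 and 0.85. *Irs1*, an adaptor of the insulin receptor, fell by 0.95 (adjusted p = 0.00272) and by 0.90 (adjusted p = 0.0109). In WT mice *Klf15*, an activator of amino acid breakdown and gluconeogenesis, fell by 0.87 (adjusted p = 9.92e-04) and *Cebpa* by 0.72 (adjusted p = 2.01e-04), while *Cebpb* rose by 0.68 (adjusted p = 0.0122). In Pxr-/- mice *Trib3*, a pseudokinase that binds AKT, fell by 1.75 (SE 0.28, adjusted p = 0.00136) and *Pde4b*, which degrades cyclic AMP, by 0.68 (adjusted p = 0.0290). None of the 24 was called for a difference between the responses.

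Between the CONT groups the only listed gene called was *Pde4b*, 0.87 higher in Pxr-/- mice (SE 0.18, adjusted p = 0.0314). No listed gene was called in 13 of 35 alternatives, which were the deposited values, the processed signal, no filter, only the groups compared, washing batch 1, and leaving out WT CONT replicate 1, 2, 5 or 6 or Pxr-/- CONT replicate 1, 2, 4 or 5. Of all genes, 0.841% were called higher and 1.54% lower in Pxr-/- PCN than in WT PCN mice. Between the PCN groups 4 of the 24 hormone and transcription control genes were called, all higher in Pxr-/- PCN mice, as was *Pck1*. They were *Sds*, serine dehydratase (1.08, adjusted p = 0.00966), *Tat*, tyrosine aminotransferase (0.73, adjusted p = 0.0436), *Foxo1*, a transcription factor restrained by insulin (0.64, adjusted p = 0.0204), and *Ppargc1a* (0.60, adjusted p = 0.0498). In the deposited values 12 of all the listed genes were called in this comparison against 5 here. There the median of all probes was -0.18 and only 5.16% of all called genes were higher. The direction of the 12 is not given here.

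**Figure D4:**
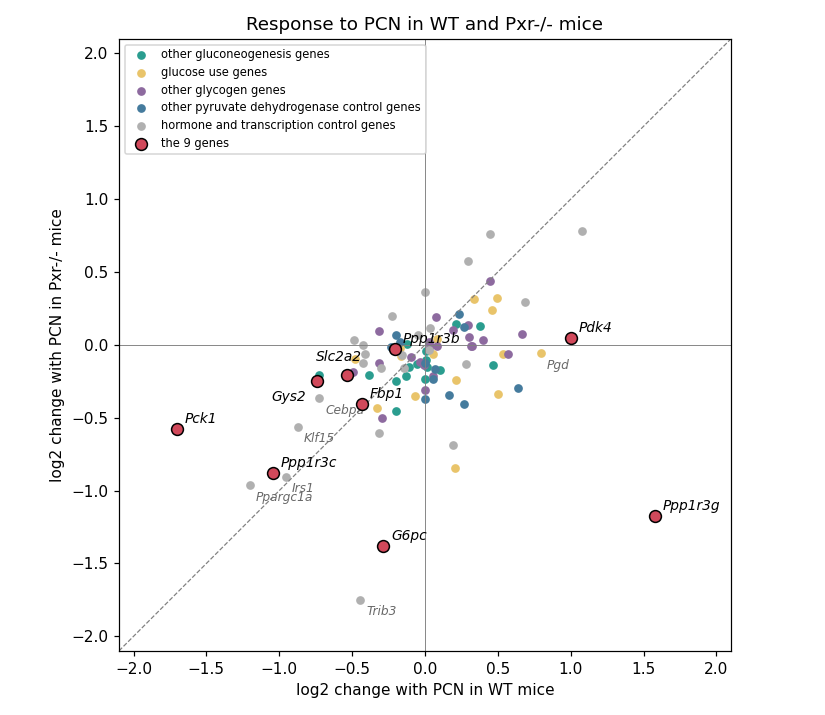
Fitted log2 change with PCN in WT mice (horizontal) and in Pxr-/- mice (vertical) for the 9 genes (red) and the genes of the 5 lists (other colours), each read from its brightest probe, with equal change on the dashed diagonal. *Ppp1r3g* lies far below the diagonal, at 1.58 and -1.18, and *Pck1* far to the left, at -1.70 and -0.58, while *Ppp1r3c*, *Ppargc1a* and *Irs1* lie near the diagonal.

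Tissues that also express some of the 9 genes were checked by their markers. For adipose tissue, which expresses *Pck1* and *Pdk4*, 3 to 5 of 6 markers were above background on an array. *Adipoq* was above background on none of the 23 arrays, *Retn* on 6 and *Plin1* on 16. The summed log2 signal of the list was 10.30 to 10.95 in WT CONT, 10.34 to 11.23 in WT PCN, 10.32 to 11.03 in Pxr-/- CONT and 10.30 to 10.74 in Pxr-/- PCN mice. Of these markers *Fabp4* was called higher in WT PCN mice, by 0.61 (adjusted p = 0.00678), as was *Pdk4*. The 4 adipocyte markers tested were split in this comparison, 2 higher and 2 lower, from -1.07 to 0.61 with a median of 0.01. The part of adipose tissue in the *Pdk4* result was not tested. For skeletal muscle, which expresses *Pdk4* and *Ppp1r3c*, 2 to 4 of 6 markers were above background, with *Mb* on none of the arrays and *Ckm* and *Acta1* on 1 each, and the summed signal was between 7.996 and 8.39 over all groups. For pancreas, whose beta cells express *Slc2a2*, 3 or 4 of 7 markers were above background, with *Ins2* and *Cpb1* on none, and the sum was between 8.54 and 8.96. Of the Kupffer, stellate and endothelial cell lists, each with all 6 markers above background on every array, none was called after PCN in either genotype. Their summed signals were 14.67 to 16.54, 11.91 to 13.10 and 13.67 to 14.54. Of the cholangiocyte list, with 4 or 5 of 6 markers above background and sums of 10.53 to 12.97, *Sox9* was called higher in WT PCN mice, by 0.76 (adjusted p = 0.0109). After PCN, 4 of the 5 cholangiocyte markers tested were higher and 1 lower in each genotype. Their median change was 0.73 in WT and 0.62 in Pxr-/- mice, where none was called. Between the PCN groups, where *Pck1* was called higher in Pxr-/- mice, *Fabp4* was 0.59 lower (adjusted p = 0.0242) and *Sox9* 0.76 lower (adjusted p = 0.0279) in Pxr-/- PCN mice. The adipocyte markers as a list went the other way from *Fabp4*, with 3 of 4 higher and 1 lower. They ran from -0.59 to 0.61, with a median of 0.20. Of the 5 cholangiocyte markers tested, 1 was higher and 4 lower, with a median of -0.32. Of the hepatocyte markers, *Apoa1* rose by 0.62 with PCN in Pxr-/- mice (adjusted p = 9.55e-04). A second probe of *Ttr* was 0.94 higher in Pxr-/- PCN than in WT PCN mice (adjusted p = 5.71e-05), and its PCN effects differed by -0.95 (adjusted p = 0.00358). The brightest *Ttr* probe was not called in either comparison. Read from their brightest probes, the 5 hepatocyte markers ran from -0.02 to 0.57 between the PCN groups. Their differences of the PCN effects ran from -0.58 to 0.05. The part of these markers in the results for the 9 genes was not tested.

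The genes whose profile over the 23 mice was nearest to each called gene were found by the root mean square difference of centred log2 signals, batch removed, among 15099 named genes. A gene's own root mean square around its mean gives the scale. For *Pck1* (own value 0.82) they were *Lrit1* (0.41), *Trp53inp2* (0.44) and *Snora47* (0.45). For *Gys2* (own value 0.46) they were *Tef* (0.21), *Cry2* (0.22) and *Vps13a* (0.23). For *Ppp1r3c* (own value 0.61) they were *Gm19696* (0.36), *Mcc* (0.36) and *Pnldc1* (0.37). For *Ppp1r3g* (own value 1.14) they were *Chrna4* (0.75), *Meig1* (0.80) and *Thrsp* (0.84). For *Pdk4* (own value 0.50) they were *Entpd5* (0.32), *Cyp3a25* (0.34) and *Pik3c2g* (0.34).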

How the data were processed

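Liver RNA of 23 mice was hybridised to Agilent 1-colour arrays. Groups, replicate numbers and washing batch came from the labels. Per the file headers, the scanner files (Feature Extraction 10.10.1.1) hold an intensity per spot, not normalized between arrays, with quality flags. The authors also deposited normalized log2 values (32574 probes), made per the study's methods from filtered median signals with correction for washing batch and CrossNorm. The sources used here do not give the filter in detail.

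Values here were computed from the scanner files. Control spots and 2225 outlier spots were left out, log2 median signals were averaged per probe, probes were kept (32087, for 21056 genes) if in any 1 group over 50% of arrays had them well above background, and arrays were quantile normalized. All 23 arrays entered 1 limma 3.58.1 fit (R 4.3.3, package data.table, version 1.17.8) with group and washing batch, leaving 18 residual degrees of freedom. The Benjamini-Hochberg adjustment covered all probes. The fit was tested on simulated data. A gene was counted as called when any of its probes was, and was read from its brightest probe. The 9 genes are named in every comparison, with at most 4 called genes per list and comparison and the 3 nearest profiles per called gene. *Pcx*, *Cebpb*, the uncalled kinases and phosphatases and the marker genes were named after their values were seen. The members and lists were chosen with earlier results of these data known. Probe positions are as the array files give them (mm9). Whether a probe lies in a coding exon or a UTR was not determined here. Gene names are the array's, and 15099 of 21056 were found in RefSeq. Alternatives were other signals, normalizations, filters and batch treatments, the replicate number as a block, and leaving out each array. Arrays give no counts, so their number limits the precision.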

Additional observations from a re-analysis of the deposited data

Results flagged for a closer look

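Dixon's criterion was applied to each of the 9 genes in each of the 4 groups, and 5 of 36 groups held a mouse far from the others. Chance alone gives about 1 in 20 groups if signals are normally distributed. The 36 groups come from the same 23 arrays and are not independent, so the count was not tested against that rate. The share of all genes flagged in this way is not given here. The flagged mice were Pxr-/- CONT replicate 2 for *G6pc* (log2 signal 12.54), WT CONT replicate 2 for *Fbp1* (17.46), WT PCN replicate 4 for *Gys2* (13.10), Pxr-/- CONT replicate 4 for *Ppp1r3g* (7.21) and Pxr-/- PCN replicate 6 for *Ppp1r3g* (9.66). The 2 *Ppp1r3g* mice each lay toward the other Pxr-/- group. Without either of them the fall with PCN in Pxr-/- mice was called, at -1.61 (limma adjusted p = 0.00959) and -1.45 (adjusted p = 0.0411). Leaving out a mouse picked for lying toward the other group enlarges the fall, so these calls are no separate evidence of it. Of the 23 fits that left out 1 array, 2 called this fall, and the largest adjusted p was 0.241.

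*Ppp1r3g* also stood out because its response to PCN differed between the genotypes by 2.75 on the log2 scale, with an interaction term that passed the threshold (limma adjusted p = 0.0244). In the same arrays Pxr-/- minus WT was 2.38 in CONT and -0.37 in PCN mice. The difference of 2.75 thus lay mostly between the CONT groups and is not a result separate from theirs. For *Ppp1r3g*, all 5 WT PCN mice were above all WT CONT mice, and the share of all genes that separate in this way is not given here.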

How the results depend on the processing

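Over 35 alternatives, 23 of them leaving out 1 array, no change of a gene called in any setting reversed. Of 45 changes (9 genes in 5 comparisons), 9 were called here, 5 only under some alternative and 31 under none, of which 18 changed sign somewhere. The fall of *Pck1* in WT mice was called throughout. Fewer arrays enter the fits within a batch. The number of the 9 genes called in WT mice, 5, became 1 within batch 2. In Pxr-/- mice 1 became 0 within either batch and 0 to 2 without single arrays. For the difference of the effects 1 became 0 within either batch and 0 to 2 without single arrays. Between CONT groups 1 became 0 within batch 1. Between PCN groups 1 became 2 with deposited values, 0 within batch 1 and 1 to 2 without single arrays.

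Of the listed pathway genes, the 12 called in WT mice became 20 with deposited values and 21 with the processed signal. In Pxr-/- mice 4 became 0 within either batch. For the difference 3 became 1 within batch 1 and 3 to 5 without single arrays. Between CONT groups 1 became 0 with deposited values, the processed signal, no filter, only the groups compared, within batch 1, and 0 to 1 without single arrays. Between PCN groups 5 became 12 with deposited values, 3 without the filter, 3 within batch 1, 0 within batch 2 and 2 to 6 without single arrays. The cause of these shifts was not tested.

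With the replicate number as a block, 2 of the 9 genes were called in Pxr-/- mice (*Ppp1r3g*, -1.18, adjusted p = 0.0483, beside *Ppp1r3c*) and 2 between PCN groups (*Gys2*, 0.65, adjusted p = 0.0296, beside *Pck1*). No other call among the 9 genes changed. Neither labels nor methods say that the numbers pair mice. Correlations of same-numbered mice ran from -0.25 to 0.49, with a median of 0.07. Those of differently numbered mice ran from -0.37 to 0.39, with a median of -0.02. Of 23 mice, 7 were closest to their own number, and the number that chance would give is not given here.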
